A study of Homo sapiens with 8 samples.

Results

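The effect of LKB1 siRNA common to a pair of glioblastoma cell lines was measured as the mean of 4 paired log2 differences. All 8 libraries of the study entered it, 4 with LKB1 siRNA and 4 with control siRNA. Each LKB1 siRNA library was set against the control siRNA library of the same line and sequencing lane, which gave the pairs T98 lane 2, T98 lane 4, U87 lane 2 and U87 lane 5. Of 18787 gene symbols, the 14282 with a normalised value of 10 or more in at least 2 libraries were tested. T98 and U87 are established human glioblastoma lines, and total RNA was taken 72 h after siRNA transfection with Lipofectamine RNAiMAX. The 4 groups (T98 or U87, control siRNA or LKB1 siRNA) held 2 libraries each. The sources used here give neither the siRNA sequences nor their number. Nothing says that the 2 libraries of a group came from separate transfections, so a p-value covers only the spread seen between these libraries, and that spread may be technical.

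LKB1, encoded by STK11, is a serine/threonine kinase that needs the pseudokinase STRAD and the scaffold protein MO25 for its activity. This LKB1 complex phosphorylates the activation loop of AMPK, the kinase that answers low cellular energy and restrains the growth regulator mTORC1. It also activates the AMPK-related kinases, among them the salt-inducible kinases (SIK), which hold the CREB coactivators of the CRTC family in the cytoplasm, and the MARK and BRSK kinases, which act on the cytoskeleton and on cell polarity.

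Values are the normalised values that the authors deposited, and sets of 4 values always run in the order T98 lane 2, T98 lane 4, U87 lane 2, U87 lane 5. Differences are log2 of the value plus 1, LKB1 siRNA minus control siRNA. Adjusted p-values come from limma-trend with a term for the pair and Benjamini-Hochberg adjustment over all genes tested. Each SE comes from the same fit, which moderates the spread of a gene towards that of genes at a similar level. An SE can therefore be smaller or larger than the 4 paired differences of the gene alone would give. A gene is said to have risen or fallen where the adjusted p was under 0.05. Read numbers, here and below, were recovered from the deposited values by undoing their transformation. Over all deposited genes, the recovered reads summed to 25234334 to 38031734 per library. The paired differences of all genes centred on 0 (medians −0.01 to 0.04), and their SD over genes was 0.79 in the T98 lane 2 pair against 0.54 to 0.64 in the other 3 pairs. Across genes, which are not independent replicates, the differences correlated at 0.58 between the T98 pairs, 0.59 between the U87 pairs and 0.30 to 0.45 between pairs of different lines. Of the glial and glioma stem cell markers, S100B, AQP4, ALDH1L1, OLIG1, SOX2 and PROM1 were under 10 in every library, and 10 of 16 were measured. The leukocyte marker PTPRC was under 10 everywhere.

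STK11 fell in every pair. The STK11 transcript NM_000455 (hg19, chromosome 19, 1205798 to 1228434, plus strand) was at 1999, 2041, 2445 and 2041 with control siRNA and at 339.9, 587.6, 360.7 and 384.6 with LKB1 siRNA. The groups did not overlap, and the T98 lane 4 library with LKB1 siRNA kept the highest level. The STK11 difference was −2.38 (SE 0.16, 4 pairs, adjusted p = 0.00114), a 5.20-fold decrease. It passed under every alternative tried, with adjusted p-values from 0.000315 to 0.0369. Whether less RNA per cell or fewer cells expressing a gene lies behind a difference cannot be told apart in bulk RNA, here or below.

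Over all genes, 1213 rose (8.49% of those tested) and 1122 fell (7.86%), 2335 in all (16.3%). The median difference was 0.71 among risen and −0.67 among fallen genes, and 322 rises and 179 falls reached 2-fold. Of the 2335, 2323 moved one way in all 4 pairs, as did 43.1% of all genes tested. At an unadjusted p under 0.05, 34.4% of all genes passed. Tested within each line, 1211 genes rose (8.48%) and 1047 fell (7.33%) in T98, and 755 rose (5.29%) and 844 fell (5.91%) in U87. Of these, 405 genes rose in both lines, 309 fell in both and 11 were called in opposite directions. These counts rested on the pairing and on single pairs. Without the pair term, 143 genes rose and 122 fell. Without the U87 lane 5 pair, 342 rose and 231 fell, and without the T98 lane 4 pair, 558 and 569. Omitting the U87 lane 2 pair gave 807 and 628.

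**Figure D1:**
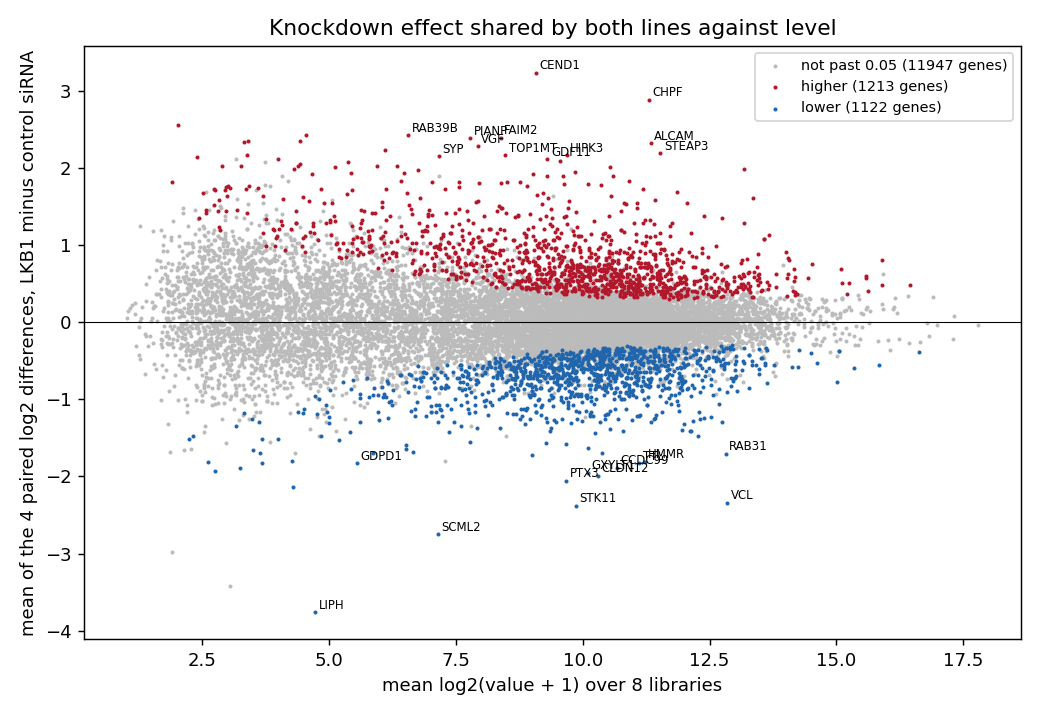
Mean of the 4 paired log2 differences (LKB1 minus control siRNA) against the mean log2(value + 1) over the 8 libraries, 1 point per gene. Red points rose (1213 genes), blue points fell (1122 genes), grey points did not pass, and the 12 largest rises and 12 largest falls by the naming rule carry their symbols.

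The 12 largest rises were led by CEND1, described below, and CHPF. They were taken from genes with a mean of 50 or more in the higher siRNA group of each line, so controls could be low. CHPF, which extends chondroitin sulfate chains, was at 630.1, 845.9, 1397 and 1013 with control siRNA and at 6551, 5200, 8729 and 7429 with LKB1 siRNA. The groups did not overlap, and every CHPF library with LKB1 siRNA was more than 3 times above the highest control. The CHPF difference was 2.88 (SE 0.14, adjusted p = 0.000434), or 7.35-fold. ALCAM, a cell adhesion molecule of the immunoglobulin family, went from 972.3, 2091, 764.4 and 1154 to 4319, 9287, 4988 and 5515, a difference of 2.32 (SE 0.12, adjusted p = 0.000434). The kinase HIPK3 went from 425.4, 534.5, 253.5 and 392.4 to 1923, 2233, 1369 and 1539, a difference of 2.16 (SE 0.11, adjusted p = 0.000496). ALCAM and HIPK3 rose by nearly the same amount in all 4 pairs, from 2.15 to 2.70 for ALCAM and from 1.97 to 2.43 for HIPK3, and their groups did not overlap either.

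STEAP3, which reduces the iron that enters cells with transferrin, was at 516, 650.4, 3386 and 3251 with control siRNA and at 3672, 2794, 13410 and 11590 with LKB1 siRNA. Its level was higher in U87 than in T98 under both siRNAs, so the groups overlap although each pair rose, by 1.83 to 2.83 (mean 2.19, SE 0.16, adjusted p = 0.00165). GDF11, a ligand of the TGF-beta family, rose by 2.11 (SE 0.19, adjusted p = 0.00209), and TOP1MT, the mitochondrial topoisomerase I, by 2.16 (SE 0.19, adjusted p = 0.00184). Control and LKB1 siRNA values did not overlap for either. Of the 12 rises, 7 had groups that did not overlap, as did 1.98% of all genes tested in that direction. The 12 were picked by the size and direction of the same differences, so this count partly restates the choice and carries no test.

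The other 6 of the 12 rises were CEND1, FAIM2, RAB39B, PIANP, VGF and SYP. CEND1, which takes neuronal precursors out of the cell cycle, was at 26.74, 44.68, 1090 and 681.5 with control siRNA and at 1198, 1129, 2691 and 2011 with LKB1 siRNA. It was low in the T98 controls alone, and the paired differences were 5.43 and 4.63 in T98 against 1.30 and 1.56 in U87 (mean 3.23, SE 0.68, adjusted p = 0.0223). The Fas inhibitor FAIM2 went from 10.82, 41.92, 1353 and 655.7 to 127, 445.3, 3118 and 1885, by 2.39 (SE 0.40, adjusted p = 0.0109). These were the only genes among the 24 largest changes whose effect differed between the lines past the threshold, by 3.60 for CEND1 (adjusted p = 0.0271) and 2.04 for FAIM2 (adjusted p = 0.0349), T98 minus U87 by limma-trend. Such a difference was called for 0.476% of all genes. RAB39B, a small GTPase of neurons, was at 2.186, 6.686, 292.5 and 380 with control siRNA and at 66.1, 63.29, 707.9 and 727.7 with LKB1 siRNA. RAB39B rested on 2 and 7 reads in the T98 controls, so its mean difference of 2.42 (SE 0.54, adjusted p = 0.0267) is rough. CEND1 and RAB39B did not pass without the T98 lane 4 pair (adjusted p = 0.0777 and 0.0893 by limma-trend). Among the 24 largest changes, they alone had 95% intervals, from the 4 paired differences without moderation, that included 0. These ran from −0.12 to 6.58 for CEND1 and from −0.16 to 4.99 for RAB39B.

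PIANP, a neural ligand of the inhibitory receptor PILRA, rose by 2.38 (SE 0.39, adjusted p = 0.0104), the neuropeptide precursor VGF by 2.28 (SE 0.36, adjusted p = 0.00924) and the synaptic vesicle protein synaptophysin, SYP, by 2.15 (SE 0.28, adjusted p = 0.00528). SYP went from 45.99, 110.3, 68.6 and 58.21 to 415.9, 362.1, 194 and 281.5, with no overlap. VGF went from 34.12, 34.17, 297.8 and 404.8 to 431.2, 74.2, 1223 and 2087. Its rise on T98 lane 4, 1.10, was the smallest of its 4, and that on T98 lane 2, 3.62, the largest. FAIM2, PIANP and VGF did not pass without the pair term (adjusted p = 0.0855, 0.138 and 0.0824). Of the 12 largest rises, the T98 lane 2 pair gave the largest of the 4 differences for 10, the pair whose differences were also the most spread over all genes.

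**Figure D2:**
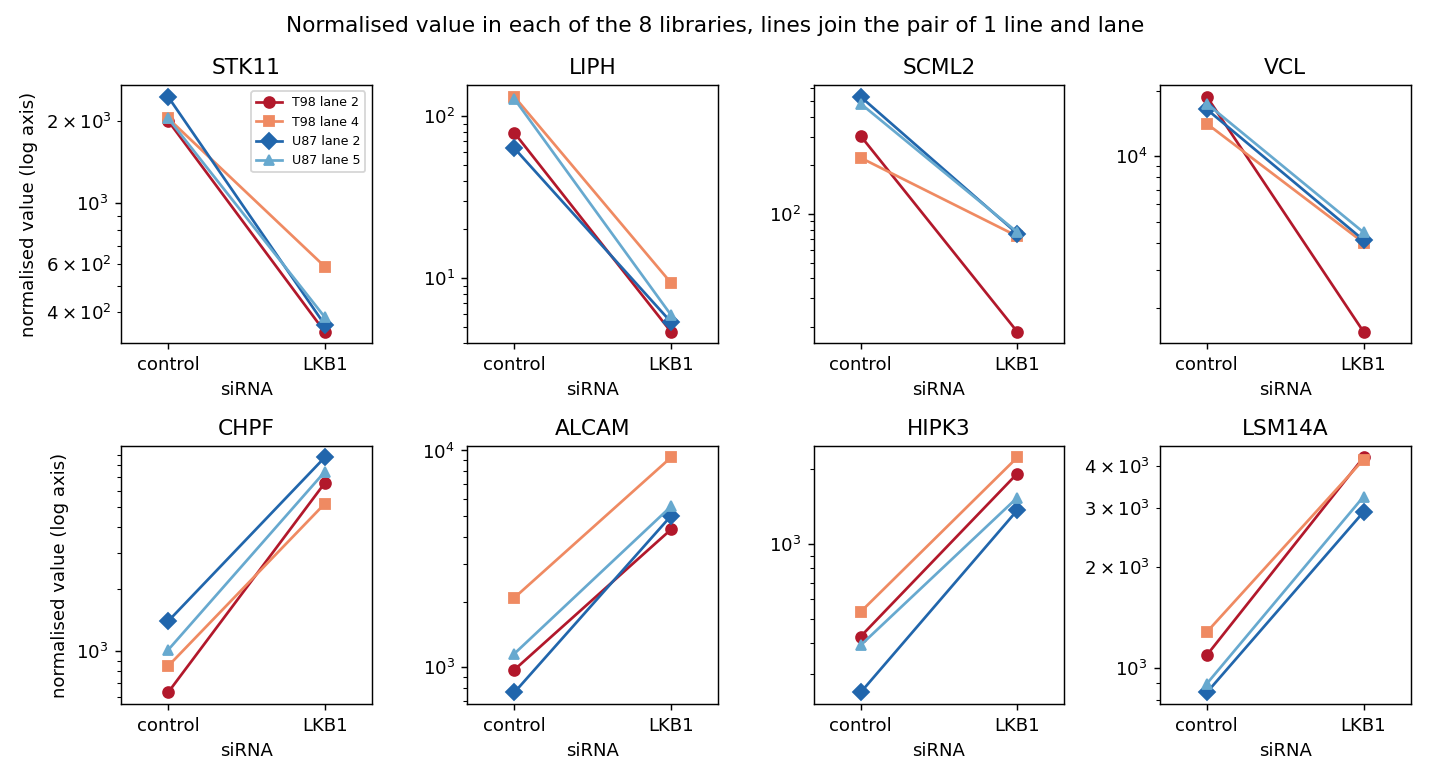
Normalised value (log axis) of STK11 and 7 genes of the text with control and with LKB1 siRNA, 1 line per pair of cell line and lane. STK11, LIPH, SCML2 and VCL fell and CHPF, ALCAM, HIPK3 and LSM14A rose in all 4 pairs, and in none of the 8 genes do the control values overlap the LKB1 siRNA values.

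The largest of the 12 named falls was that of LIPH. LIPH, a lipase that makes lysophosphatidic acid, was at 78.99, 132, 63.46 and 128 with control siRNA and at 4.672, 9.359, 5.364 and 5.933 with LKB1 siRNA, where it rested on 4, 10, 4 and 7 reads. All 4 LKB1 siRNA values lay under 10 and all 4 controls above 60. LIPH thus entered the genes tested only through its controls, so its difference of −3.76 is rough and no test is given for it. SCML2, a Polycomb protein, went from 304.8, 223, 533.1 and 483 to 18.63, 72.85, 75.6 and 77.09, by −2.75 (SE 0.34, adjusted p = 0.00474). LIPH fell by a similar amount in every pair (−4.22 to −3.34), whereas SCML2 fell by 3.96 on T98 lane 2 and by 1.60 on T98 lane 4. Vinculin, VCL, which ties integrin adhesions to actin, was at 18750, 14090, 16400 and 17410 with control siRNA and at 1563, 4008, 4120 and 4470 with LKB1 siRNA. The VCL groups did not overlap, and its lowest control was above 3 times its highest LKB1 siRNA value (difference −2.34, SE 0.28, adjusted p = 0.00413).

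The tight junction protein CLDN12 was at 2438, 2365, 2430 and 2892 with control siRNA and at 414, 719.8, 656.4 and 821 with LKB1 siRNA (difference −1.99, SE 0.15, adjusted p = 0.00165). Tubulin tyrosine ligase, TTL, went from 3097, 2499, 7330 and 5323 to 795.6, 881.7, 1728 and 1538 (difference −1.83, SE 0.11, adjusted p = 0.000913). Control levels of CLDN12 were alike in both lines and those of TTL higher in U87, and for neither gene did the groups overlap. HMMR, a hyaluronan receptor that also acts at the spindle, fell by 1.81 (SE 0.24, adjusted p = 0.00562), and CCDC99, a kinetochore adaptor of dynein, by 1.89 (SE 0.19, adjusted p = 0.00281). GXYLT1, which adds xylose to glucose on Notch receptors, fell by 1.95 (SE 0.23, adjusted p = 0.00407), and the trafficking GTPase RAB31 by 1.71 (SE 0.14, adjusted p = 0.00168). The pattern-recognition protein PTX3 fell by 2.06 (SE 0.27, adjusted p = 0.00562), and GDPD1, a lysophospholipase D, by 1.83 (SE 0.26, adjusted p = 0.00721). PTX3 and GDPD1 did not pass without the pair term (adjusted p = 0.157 and 0.0666).

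Of the 12 falls, 9 had groups that did not overlap, as did 2.60% of all genes tested in that direction. The 9 include the targeted gene STK11 and LIPH. As with the rises, the genes were picked by the same differences, so the count carries no test. The T98 lane 4 pair gave the smallest of the 4 differences for 9 of the 12, STK11 among them. HMMR shows the pattern: it fell by 2.01, 0.80, 2.41 and 2.03.

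**Figure D3:**
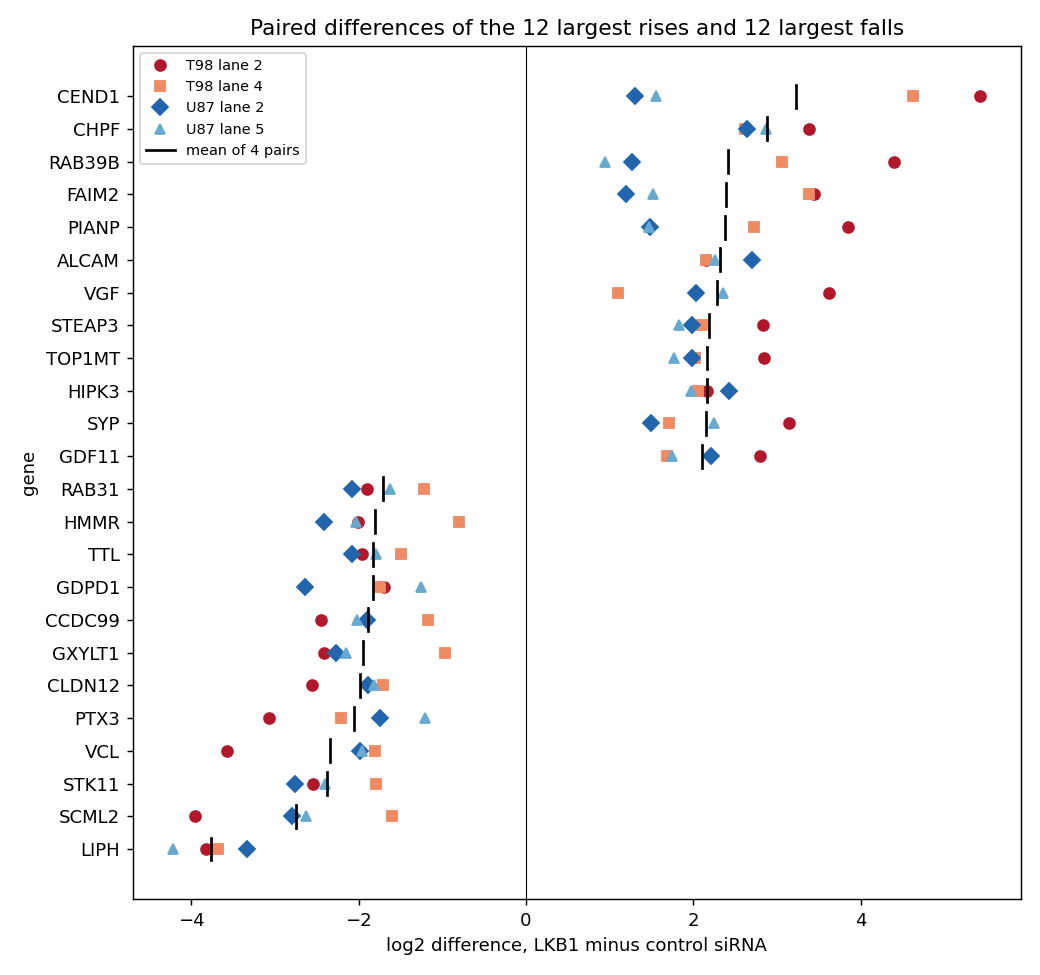
The 4 paired log2 differences of the 12 largest rises and 12 largest falls, 1 symbol per pair, with the mean as a black bar. CHPF, ALCAM, HIPK3, LIPH and TTL have 4 close values, while CEND1, FAIM2, RAB39B and PIANP rose more in both T98 pairs than in both U87 pairs.

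Several of the largest rises share a short sequence in the 3′ untranslated region (3′ UTR). All heptamers were counted in the 3′ UTRs of 14125 genes matched to GENCODE transcripts, as written on the mRNA strand. The 3 whose share among risen genes most exceeded that among all genes were CCCCACC (31.9% of risen, 21.0% of all and 16.4% of fallen genes), GCAGTAC (14.5%, 4.24% and 2.60%) and CCAGCCC (30.3%, 20.2% and 15.8%). For fallen genes they were ATTTTTA (55.4% of fallen, 37.3% of all and 35.5% of risen genes), TTTTAAA (62.9%, 45.3% and 43.6%) and TTTTTAA (62.2%, 45.3% and 45.8%), and the last pair overlap each other. The heptamers were picked by these shares, which are therefore a description. Median 3′ UTR length was 1157 bases in risen, 1488 in fallen and 934 in all matched genes. GCAGTAC was the rarest of the 6. It lies in the 3′ UTR of 5 of the 12 largest rises (CHPF, ALCAM, STEAP3, TOP1MT and HIPK3) and of 1 of the 12 largest falls (CLDN12). Among all risen genes with a matched 3′ UTR, taken without the naming rule, 17 of the 50 largest rises carry GCAGTAC. The first site is shown for 9 genes described here that carry it, chosen with their values known, with 10 flanking bases on either side, GCAGTAC in capitals, 5′ to 3′ on the mRNA strand (GENCODE transcripts, GRCh38).
CHPF, chr2:219539099-219539125, minus strand: acgtatttatGCAGTACagtctgcctg
ALCAM, chr3:105575545-105575571, plus strand: aatttatcaaGCAGTACatgaaagtgt
STEAP3, chr2:119263473-119263499, plus strand: tcaaatgtatGCAGTACtattcagaat
HIPK3, chr11:33354720-33354746, plus strand: tttttacattGCAGTACttgttttgct
LSM14A, chr19:34227646-34227672, plus strand: ttaaactaaaGCAGTACttcagtggga
IL6ST, chr5:55941037-55941063, minus strand: tacaacttcaGCAGTACctataaagta
TLN1, chr9:35697627-35697653, minus strand: gcccagtcccGCAGTACatcccctgtc
CLDN12, which fell, chr7:90414162-90414188, plus strand: cttccatcaaGCAGTACtcgtgcccat
CDK6, which fell, chr7:92607172-92607198, minus strand: gtgggaacagGCAGTACtgttgagagg

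GCAGTAC was picked on the calls of these same genes, so the values of its carriers restate that choice and carry no test. The 599 genes with GCAGTAC in the 3′ UTR had a median difference of 0.23, and 29.2% of them rose and 4.84% fell. The median was above 0 in each pair, at 0.11, 0.22, 0.38 and 0.26. Of the 13526 genes without it, 7.61% rose. The median was 0.45 with 2 or more copies (35 genes) and 0.22 with 1 copy (564 genes). Genes with the heptamer have longer 3′ UTRs (median 2990 bases against 877). Among 3′ UTRs of 2000 bases or more, 25.4% of the 418 genes with the heptamer rose and 5.5% fell (median 0.18). Of the 3420 without it, 8.07% rose and 11.5% fell (median −0.05). The part of length in these values was not tested.

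LSM14A, IL6ST, TLN1 and CDK6 belong to the gene lists described below. LSM14A, an mRNA-binding component of processing bodies, was at 1092, 1280, 844.6 and 897.4 with control siRNA and at 4249, 4186, 2920 and 3245 with LKB1 siRNA, a difference of 1.83 (SE 0.09, adjusted p = 0.000434) that lay between 1.71 and 1.96 in the 4 pairs. IL6ST, also called gp130, the receptor subunit through which most interleukin-6 family cytokines signal, went from 7847, 6271, 2751 and 3438 to 20600, 27540, 14020 and 14460 (difference 1.99, SE 0.15, adjusted p = 0.00168). Talin 1, TLN1, which links integrins to actin, went from 3870, 4376, 6491 and 11800 to 9249, 12130, 29030 and 34350 (difference 1.61, SE 0.15, adjusted p = 0.00209). The groups overlap for TLN1 and not for LSM14A or IL6ST.

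The counts of list members that follow are to be read against the 8.49% of all genes that rose and the 7.86% that fell. Of 5 genes of the LKB1 complex, STK11 and the MO25 isoform CAB39L fell (CAB39L −0.56, SE 0.15, adjusted p = 0.0415). The pseudokinases STRADA (−0.28, adjusted p = 0.0852) and STRADB (−0.13, adjusted p = 0.436) and the main MO25 scaffold CAB39 (−0.14, adjusted p = 0.249) did not pass by limma-trend. Of 6 AMPK subunits, the catalytic subunit PRKAA1 (−0.50, SE 0.12, adjusted p = 0.0335) and the scaffold subunit PRKAB2 (−0.46, SE 0.12, adjusted p = 0.0441) fell, and PRKAA2 (0.27), PRKAB1 (0.02), PRKAG1 (−0.10) and PRKAG2 (−0.07) did not pass. PRKAA1 was at 3260, 3461, 3013 and 2664 with control siRNA and at 1812, 2935, 2432 and 1769 with LKB1 siRNA, so its groups overlap. CAB39L, PRKAA1 and PRKAB2 did not pass without the pair term (adjusted p = 0.339, 0.263 and 0.424). Leaving out 1 pair ended the call of CAB39L for each of the 4 pairs (adjusted p = 0.0689 to 0.141), and those of PRKAA1 and PRKAB2 for 3 of the 4 (up to 0.142 and 0.164).

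SIK1 and BRSK1 were the 2 of 11 AMPK-related kinases that rose. SIK1, itself a CREB target that restrains CRTC, was at 711.9, 303.7, 622 and 1406 with control siRNA and at 1333, 697.1, 1532 and 2867 with LKB1 siRNA. Levels differed more between libraries of 1 siRNA than the siRNA moved them, yet all 4 pairs rose by 0.90 to 1.30 (mean 1.11, SE 0.11, adjusted p = 0.00245). BRSK1, which polarises neurons, rose by 1.21 (SE 0.24, adjusted p = 0.0189), by 2.15 and 1.24 in T98 and by 0.69 and 0.75 in U87. Without the pair term neither passed (adjusted p = 0.246 for SIK1 and 0.0704 for BRSK1), and BRSK1 did not pass without T98 lane 4 (adjusted p = 0.0631) or U87 lane 5 (0.0528). The other 9 kinases had differences from −0.37 (NUAK2) to 0.33 (SIK2), with SIK3 at −0.33, MARK3 at −0.30, SNRK at −0.23, NUAK1 at 0.21, MARK2 at 0.16, MARK4 at 0.09 and MARK1 at 0.06. MARK1 was under 3 in every T98 library.

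Downstream of AMPK, substrates and mTOR pathway genes went both ways. Of 22 measured, 5 rose and 4 fell, 22.7% and 18.2% against 8.49% and 7.86% of all genes (median 0.09), among them the mTORC1 inhibitor AKT1S1 (0.77, SE 0.12, adjusted p = 0.00896) and the mTORC1 scaffold RPTOR (0.52, SE 0.09, adjusted p = 0.0144), which rose, and the folliculin partner FNIP2 (−0.96, SE 0.18, adjusted p = 0.0163) and the Rab regulator TBC1D1 (−0.44, SE 0.09, adjusted p = 0.0192), which fell. Leaving out the U87 lane 5 pair left 1 higher and 0 lower by limma-trend, and ended the calls of RPTOR (adjusted p = 0.0797), FNIP2 (0.0674) and TBC1D1 (0.0971). RPTOR was also lost without T98 lane 4 (0.054), and TBC1D1 without T98 lane 4 (0.0552) or U87 lane 2 (0.0632). The CREB and CRTC list, which holds the regulators CRTC1, CRTC2, CRTC3 and CREB1 beside target genes, had a median of 0.40, close in all 4 pairs (0.40, 0.30, 0.34 and 0.36), against 0 for all genes. Of 19 measured, 6 rose (SIK1, BDNF, PDE4B, RGS2, NR4A3 and PER1, all of them target genes) and 0 fell by limma-trend. The regulators did not pass, at 0.40 (CRTC1), 0.25 (CRTC2), −0.14 (CRTC3) and −0.29 (CREB1). BDNF, a neurotrophin induced by CREB, went from 529.9, 766.2, 470.8 and 336 to 2047, 1277, 1205 and 942.8 with no overlap (difference 1.38, SE 0.19, adjusted p = 0.00599). Leaving out 1 pair gave 3 (U87 lane 5) to 6 rises in this list, and the fit without the pair term gave 2.

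Of 21 genes measured in the chondroitin sulfate list, which holds synthesis enzymes and core proteins, 9 rose (42.9%, against 8.49% of all genes) and 0 fell by limma-trend, and the median was 0.37, with pair medians of 0.65, 0.41, 0.32 and 0.43. The list was drawn up with the CHPF result known, so its count is not independent of it. CSGALNACT1, which starts the chain by adding the first N-acetylgalactosamine, went from 64.02, 86.44, 564.7 and 323.5 to 220.1, 301.7, 1952 and 1181. The differences were 1.77, 1.79, 1.79 and 1.86 (mean 1.80, SE 0.12, adjusted p = 0.000935), closer together than those of any of the 24 largest changes, while the levels in U87 stood above those in T98. Leaving out 1 pair gave 4 (U87 lane 5) to 9 rises, and the fit without the pair term gave 3.

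Matrix and mesenchymal genes had 10 rises and 2 falls among 30, 33.3% and 6.67% against 8.49% and 7.86% of all genes (median 0.26). The matrix glycoprotein tenascin C, TNC, rose by 1.35 (SE 0.15, adjusted p = 0.00363), and the fibrillar collagen gene COL5A1 by 0.75 (SE 0.12, adjusted p = 0.00993). The basement membrane collagen gene COL4A1 fell by 1.14 (SE 0.17, adjusted p = 0.0086), and vimentin, VIM, by 0.39 (SE 0.11, adjusted p = 0.0479). TNC was far higher in U87 (31900 and 42340 with control siRNA) than in T98 (665 and 379.7), and COL4A1 the reverse (70.67 and 46.72 against 9970 and 6829), yet each moved the same way in both lines. With the U87 lane 5 pair left out, 2 of the list rose and 1 fell, and without the pair term 1 rose. VIM was lost without T98 lane 4 (adjusted p = 0.178), U87 lane 2 (0.117) or U87 lane 5 (0.155), and with TMM (0.0512) or median scaling (0.0612).

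Focal adhesion genes went both ways. Of 27 measured, 6 rose and 4 fell, 22.2% and 14.8% against 8.49% and 7.86% of all genes, and the others did not pass (median 0.06). Beside TLN1, which rose, the zyxin gene ZYX rose by 0.68 (SE 0.10, adjusted p = 0.00673). Beside VCL, which fell, kindlin-2, FERMT2, an integrin activator, fell by 1.69 (SE 0.17, adjusted p = 0.00287), from 2370, 1652, 3198 and 2590 to 538.2, 809.1, 886.7 and 764.1 with no overlap. The list of YAP and TEAD, transcription regulators that respond to adhesion and tension, holds their own genes beside targets and had 2 rises and 6 falls among 26, 7.69% and 23.1% (median −0.07). CYR61 fell by 1.28 (SE 0.14, adjusted p = 0.00359) and the LIM protein AJUBA by 0.96 (SE 0.12, adjusted p = 0.00528), while TEAD1 rose by 0.71 (SE 0.11, adjusted p = 0.00881) and TGFB2 by 0.77 (SE 0.15, adjusted p = 0.0188). Omitting the U87 lane 5 pair, 2 focal adhesion genes rose and 3 fell, and 2 of the YAP list rose and 2 fell. Of 14 polarity genes, the kinase gene PRKCZ rose (0.99, SE 0.27, adjusted p = 0.0467) and 0 fell by limma-trend. That is 7.14% of the list, near the 8.49% of all genes. TGFB2 was lost without T98 lane 4 (adjusted p = 0.0726) or U87 lane 5 (0.087). PRKCZ was lost without T98 lane 2 (0.0897), T98 lane 4 (0.151) or U87 lane 5 (0.0969), without the pair term (0.0945) and by voom (0.0507).

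TGF-beta and activin pathway genes had 6 rises and 5 falls among 27, 22.2% and 18.5% against 8.49% and 7.86% of all genes. The type I receptor TGFBR1 went from 380.6, 475.7, 3131 and 3669 to 752.3, 932.9, 8690 and 8794 (difference 1.17, SE 0.11, adjusted p = 0.00245), and the signal transducer SMAD2 rose by 0.89 (SE 0.09, adjusted p = 0.00303). The target ID2, an inhibitor of differentiation factors, fell by 1.25 (SE 0.18, adjusted p = 0.00673), and the activin receptor ACVR2B by 1.04 (SE 0.18, adjusted p = 0.0114). The list of receptor tyrosine kinases and their ligands, called the kinase list below, had 31 genes tested. Of these, 3 rose (9.68%, near the 8.49% of all genes) and 0 fell by limma-trend, with PDGFRB at 0.49 (SE 0.09, adjusted p = 0.0154). In the interleukin-6 family list, 4 of 18 rose and 2 fell. Beside IL6ST, the ligand CLCF1 rose by 0.74 (SE 0.11, adjusted p = 0.00852), while the receptor IL6R fell by 0.42 (SE 0.11, adjusted p = 0.0429) and IL6 by 0.72 (SE 0.19, adjusted p = 0.0455), although IL6 did not fall in the U87 lane 5 pair (0.03). Without the U87 lane 5 pair, the TGF-beta list had 2 rises and 1 fall, the kinase list 0 rises, and the interleukin-6 list 1 rise and 1 fall by limma-trend, and ACVR2B (adjusted p = 0.0595), CLCF1 (0.0597) and PDGFRB (0.0894) did not pass. Omitting any of the other 3 pairs, or median scaling, left 0 falls in the interleukin-6 list by limma-trend. IL6R was lost without any 1 of the 4 pairs (adjusted p = 0.0569 to 0.167) and with median scaling (0.0562), and IL6 without T98 lane 2 (0.0865), T98 lane 4 (0.149) or U87 lane 2 (0.11), with median scaling (0.0527) and by voom (0.0531). The kinase list had 1 rise without T98 lane 4 and 0 without U87 lane 2, where PDGFRB did not pass (adjusted p = 0.0502).

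The NF-kB list, which holds NF-kB subunits beside targets and cytokines, had 3 rises and 6 falls among 28 (10.7% and 21.4%), and interferon-stimulated genes 1 rise and 5 falls among 36 (2.78% and 13.9%), against 8.49% and 7.86% of all genes. TNFAIP2 fell by 1.20 (SE 0.17, adjusted p = 0.00673) and the apoptosis inhibitor BIRC3 by 1.21 (SE 0.23, adjusted p = 0.0164), whereas IER3 rose by 0.73 (SE 0.10, adjusted p = 0.00673) and the cytokine LIF by 0.70 (SE 0.14, adjusted p = 0.0175). The NF-kB list had pair medians of −0.57 and −0.43 in T98 but −0.01 and 0.02 in U87. The viral RNA sensor DHX58 fell by 0.86 (SE 0.15, adjusted p = 0.0123) and OAS2 by 0.75 (SE 0.14, adjusted p = 0.015), and IRF9 rose by 0.53 (SE 0.14, adjusted p = 0.0454). When the U87 lane 5 pair was left out, 1 NF-kB gene rose and 3 fell, and 1 interferon gene fell, and LIF (adjusted p = 0.09), DHX58 (0.0797) and OAS2 (0.0597) did not pass. IRF9 was lost without any 1 of the 4 pairs (0.0638 to 0.184).

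Cell cycle lists had the lowest medians, with pair medians lower in U87 than in T98. Of 32 G2/M and mitosis genes, 12 fell and 0 rose by limma-trend, and of 32 G1/S and replication genes, 4 fell and 0 rose. The G2/M median was −0.75, with pair medians of −0.33, −0.06, −1.51 and −1.28, and the G1/S median was −0.46, with −0.05, 0.04, −1.05 and −0.84. KIF23, a kinesin of the cytokinetic midzone, went from 7621, 5126, 3390 and 3125 to 3921, 3696, 1053 and 1089 (difference −1.16, SE 0.19, adjusted p = 0.0111). Thymidylate synthase, TYMS, fell by 0.85 (SE 0.16, adjusted p = 0.0145) and the replication factor GINS1 by 0.86 (SE 0.21, adjusted p = 0.0365). Within lines, 31 of the 32 G2/M and 31 of the 32 G1/S genes fell in U87, where 5.91% of all genes fell, against 3 and 1 in T98, where 7.33% did. The difference between the lines passed for 10 G2/M and 5 G1/S genes. Leaving out the U87 lane 5 pair left 1 G2/M and 0 G1/S genes lower, and leaving out the T98 lane 4 pair 16 and 6, by limma-trend. With 1 effect per line, so that the lines' difference is not counted as spread, 31 and 26 were lower, and with no filter on low values 0 and 0 by limma-trend. KIF23 (adjusted p = 0.059), TYMS (0.0724) and GINS1 (0.139) did not pass without U87 lane 5, nor GINS1 without U87 lane 2 (0.0718).

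CDK6, a kinase of the G1 phase, was lower with LKB1 siRNA in all 4 pairs. It went from 22530, 11190, 4721 and 3954 to 7473, 6210, 2135 and 1526 (difference −1.24, SE 0.13, adjusted p = 0.00287), and its paired differences were −1.59, −0.85, −1.14 and −1.37. Of 16 G1 regulators, the retinoblastoma gene RB1 also fell (−0.40, SE 0.11, adjusted p = 0.0432) and E2F5 rose (0.73, SE 0.17, adjusted p = 0.0274). RB1 (adjusted p = 0.067 to 0.159) and E2F5 (0.054 to 0.0824) were lost whichever 1 of the 4 pairs was left out. In the fit without the pair term, 0 of these 16 genes passed by limma-trend.

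**Figure D4:**
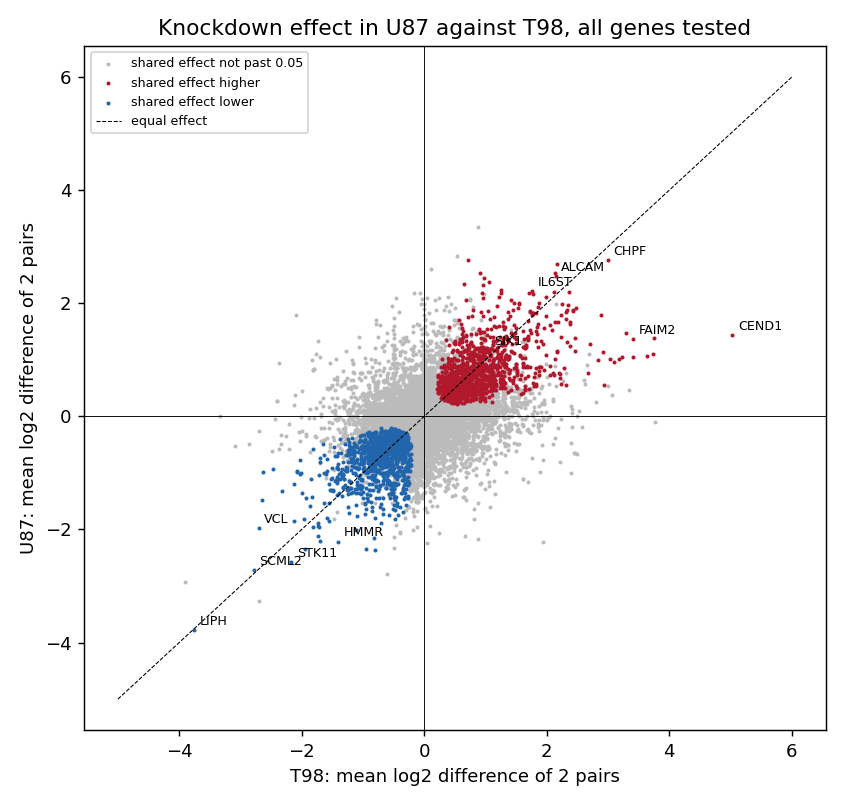
Mean difference of the U87 pairs against that of the T98 pairs for all 14282 genes, log2 scale, with the dashed line at equal effects. Red and blue points rose and fell in the shared effect, LIPH, SCML2 and CHPF lie close to the dashed line, and CEND1 and FAIM2 lie far on the T98 side.

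Among genes of the amino acid response and the unfolded protein response, 8 of 23 rose and 1 fell, 34.8% and 4.35% against 8.49% and 7.86% of all genes (median 0.34, pair medians 0.65, 0.37, 0.24 and 0.17). The endoplasmic reticulum chaperone HSPA5 went from 39890, 33730, 47330 and 70180 to 69130, 54410, 99950 and 110200 (difference 0.80, SE 0.11, adjusted p = 0.00599), and the disulfide isomerase PDIA4 rose by 0.64 to 0.75 in the 4 pairs (mean 0.69, SE 0.08, adjusted p = 0.00391). The cystine transporter SLC7A11 fell by 0.84 (SE 0.18, adjusted p = 0.023). Only 2 of them rose without the U87 lane 5 pair, where SLC7A11 did not pass (adjusted p = 0.1), and 1 without the pair term.

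Glycolysis genes had 8 rises and 1 fall among 22, 36.4% and 4.55% against 8.49% and 7.86% of all genes (median 0.27). PFKFB4, which sets the flux through phosphofructokinase, rose by 0.63 (SE 0.08, adjusted p = 0.00563) and the lactate transporter SLC16A1 by 0.56 (SE 0.08, adjusted p = 0.00816), while hexokinase 1, HK1, fell by 0.61 (SE 0.11, adjusted p = 0.0119). Of 20 hypoxia genes, 5 rose and 0 fell by limma-trend, with lysyl oxidase, LOX, at 0.91 (SE 0.12, adjusted p = 0.00626) and carbonic anhydrase CA9 at 1.31 (SE 0.21, adjusted p = 0.0105). Of 28 respiratory chain genes, 2 fell (7.14%, near the 7.86% of all genes), ATP5C1 (−0.57, SE 0.09, adjusted p = 0.00897) and UQCRFS1 (−0.37, SE 0.09, adjusted p = 0.0292). Without the U87 lane 5 pair, 2 glycolysis and 2 hypoxia genes rose and 0 respiratory chain genes fell, with adjusted p = 0.0597 for HK1, 0.0603 for ATP5C1 and 0.118 for UQCRFS1, and without the pair term 0 of these 3 lists passed by limma-trend. UQCRFS1 was also lost without T98 lane 4 (0.0933) or U87 lane 2 (0.0936).

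NRF2 targets had 1 rise and 6 falls among 23, 4.35% and 26.1% against 8.49% and 7.86% of all genes (median −0.24). AKR1B10 fell by 0.83 (SE 0.11, adjusted p = 0.00648) and AKR1C2 by 0.58 (SE 0.09, adjusted p = 0.00924), although the AKR1C genes are close copies whose reads may be shared. Haem oxygenase, HMOX1, rose by 1.15 (SE 0.19, adjusted p = 0.0101). Among p53 targets, 5 of 19 rose and 2 fell. The proapoptotic gene BBC3 rose by 0.93 (SE 0.15, adjusted p = 0.0105) and the ribonucleotide reductase subunit RRM2B by 0.56 (SE 0.09, adjusted p = 0.00937), and the p53 ubiquitin ligase MDM2 fell by 0.77 (SE 0.15, adjusted p = 0.0181) and GADD45A by 0.56 (SE 0.10, adjusted p = 0.0131). In the BCL2 family, 2 of 14 rose (14.3%) and 1 fell (7.14%, near the share of all genes), with BCL2L1 at 0.50 (SE 0.09, adjusted p = 0.0143). With the U87 lane 5 pair left out, 4 NRF2 targets fell, 2 p53 targets rose, and 0 of the BCL2 family passed by limma-trend, with adjusted p = 0.0535 for HMOX1, 0.061 for BBC3, 0.0674 for MDM2, 0.0823 for GADD45A and 0.0681 for BCL2L1.

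Sterol and fatty acid genes had 3 rises and 3 falls among 26 (11.5% each way), near the 8.49% and 7.86% of all genes. HMGCS1, an early enzyme of cholesterol synthesis, fell in every pair, from 12530, 5582, 2342 and 1871 to 3965, 2506, 1199 and 792.7 (difference −1.25, SE 0.12, adjusted p = 0.00255). The sterol carrier STARD4 rose by 0.85 (SE 0.11, adjusted p = 0.00563) and the elongase ELOVL6 by 0.70 (SE 0.10, adjusted p = 0.00781). Of 25 lysosome and autophagy genes, 2 rose and 2 fell, also near those shares, with LAMP2 at 0.84 (SE 0.08, adjusted p = 0.0024) and ATG5 at −0.60 (SE 0.12, adjusted p = 0.0206). Of 14 iron genes, 3 rose and 2 fell. Beside STEAP3, the mitochondrial iron importer SLC25A37 rose by 0.89 (SE 0.10, adjusted p = 0.00395), and the ferritin receptor NCOA4 fell by 0.56 (SE 0.08, adjusted p = 0.00846). Without the U87 lane 5 pair, the sterol list had 2 rises and 1 fall, the lysosome list 1 rise and 0 falls, and the iron list 2 rises and 1 fall by limma-trend. ATG5 was lost without T98 lane 4 (adjusted p = 0.0586) or U87 lane 5 (0.0613). The iron list was drawn up with the STEAP3 result known, as were the processing body list with that of LSM14A and the interleukin-6 list with that of IL6ST.

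In the RNA interference machinery, 4 of 14 rose and 1 fell, 28.6% and 7.14% against 8.49% and 7.86% of all genes. DICER1, which cuts microRNA precursors, fell by 0.97 (SE 0.11, adjusted p = 0.00385), from 3329, 2223, 2867 and 3628 to 1438, 1316, 1670 and 1633 with no overlap. Its partner TARBP2 rose by 0.97 (SE 0.15, adjusted p = 0.00998), and the Argonaute gene EIF2C4 by 0.87 (SE 0.15, adjusted p = 0.0131). Of 17 processing body factors, LSM14A rose and the decapping factor DCP1A fell (−0.55, SE 0.12, adjusted p = 0.0235), 5.88% each way. Of 32 cytosolic ribosomal protein genes, RPS2 rose (0.50, SE 0.10, adjusted p = 0.0173), 3.12% of the list. The ribosomal list had a median of 0.22 that was high in the T98 lane 2 pair (0.59) and lower in the other 3 (0.15, 0.04 and 0.12). Housekeeping genes had a median of −0.01, and PGK1 was the 1 of 14 (7.14%) that rose (0.40, SE 0.09, adjusted p = 0.028). When the U87 lane 5 pair was left out, 1 gene of the RNA interference list rose and 1 fell, and EIF2C4 (adjusted p = 0.0768), DCP1A (0.0855), RPS2 (0.0983) and PGK1 (0.132) did not pass. DCP1A (0.0735) and PGK1 (0.101) were also lost without T98 lane 4, and PGK1 without U87 lane 2 (0.0577).

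Neuronal markers had the highest median of the 37 lists, 0.97, with pair medians of 1.32, 0.45, 1.09 and 0.92. Of 11 measured, 5 rose and 1 fell, 45.5% and 9.09% against 8.49% and 7.86% of all genes. The risen members were CEND1, KIF5C, RAB39B, SYP and SNAP25. Of these, CEND1, KIF5C and RAB39B were put on the list with their results known. The list's count, share and median therefore partly restate that choice and carry no test. SNAP25, a fusion protein of synaptic vesicles, went from 85.49, 287.9, 778 and 576.5 to 439.1, 897.6, 2386 and 2226 (difference 1.89, SE 0.15, adjusted p = 0.00168). The dendritic protein MAP2 fell by 1.19 (SE 0.26, adjusted p = 0.0244). The neuronal markers RBFOX3, STMN2, NEFL, DCX and INA were under 10 in every library. Summed over the 17 markers, levels were 8887 to 9829 in T98 with control siRNA and 10200 to 13080 with LKB1 siRNA, and 9442 to 11980 and 16030 to 18620 in U87. Leaving out the T98 lane 4 pair gave 2 rises and ended the call of MAP2 (adjusted p = 0.0889), and the fit without the pair term 3. With only genes at 50 or more in at least 4 libraries, the list's median was 1.99, and with no filter 0.40.

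Granins and a repressor of neuronal genes were added after their values were seen. Secretogranin II, SCG2, was at 198.5, 511.9, 578.2 and 86.68 with control siRNA and at 1785, 1725, 1900 and 178.9 with LKB1 siRNA (difference 1.92, SE 0.30, adjusted p = 0.00972). Chromogranin B, CHGB, was at 3.251, 7.632, 1.107 and 6.731 with control siRNA, under 10 throughout, and at 35.22, 25.08, 9.745 and 22.24 with LKB1 siRNA, and only through these last did it enter the genes tested, so no fold or test is given for it. KIF5C, a motor of axonal transport, rose by 2.09 (SE 0.42, adjusted p = 0.0201), by 3.55 and 2.81 in T98 and by 1.09 and 0.92 in U87, and the difference between the lines, 2.17, passed (adjusted p = 0.0415 by limma-trend). REST, which represses neuronal genes, had a difference of −0.30 (SE 0.17, adjusted p = 0.239) and did not pass, at −0.94, −0.16, 0.02 and −0.13 in the 4 pairs.

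Of 10 glial markers, SOX9 (0.65, SE 0.09, adjusted p = 0.00673) and the glutamate transporter SLC1A3 (0.64, SE 0.15, adjusted p = 0.0324) rose, 20% against 8.49% of all genes. SLC1A3 was lost whichever 1 of the 4 pairs was left out (adjusted p = 0.0507 to 0.0896) and without the pair term (0.192). Of 5 leukocyte and 6 endothelial markers measured, 0 passed by limma-trend. The 6 epithelial markers had a median of 0.41, with pair medians of 0.44, 0.06, 0.90 and 0.41. The keratin KRT4 was the 1 counted as risen, and its call was lost without T98 lane 2 or T98 lane 4 and with a pseudocount of 10. KRT4 was at 10.6, 4.699, 0.03341 and 5.782 with control siRNA and at 143.3, 69.68, 1.722 and 10.38 with LKB1 siRNA. Only 1 control library reached 10, so KRT4 entered the genes tested only through its LKB1 siRNA libraries, and no fold or test is given for it. The part of these markers in the results above was not tested.

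**Figure D5:**
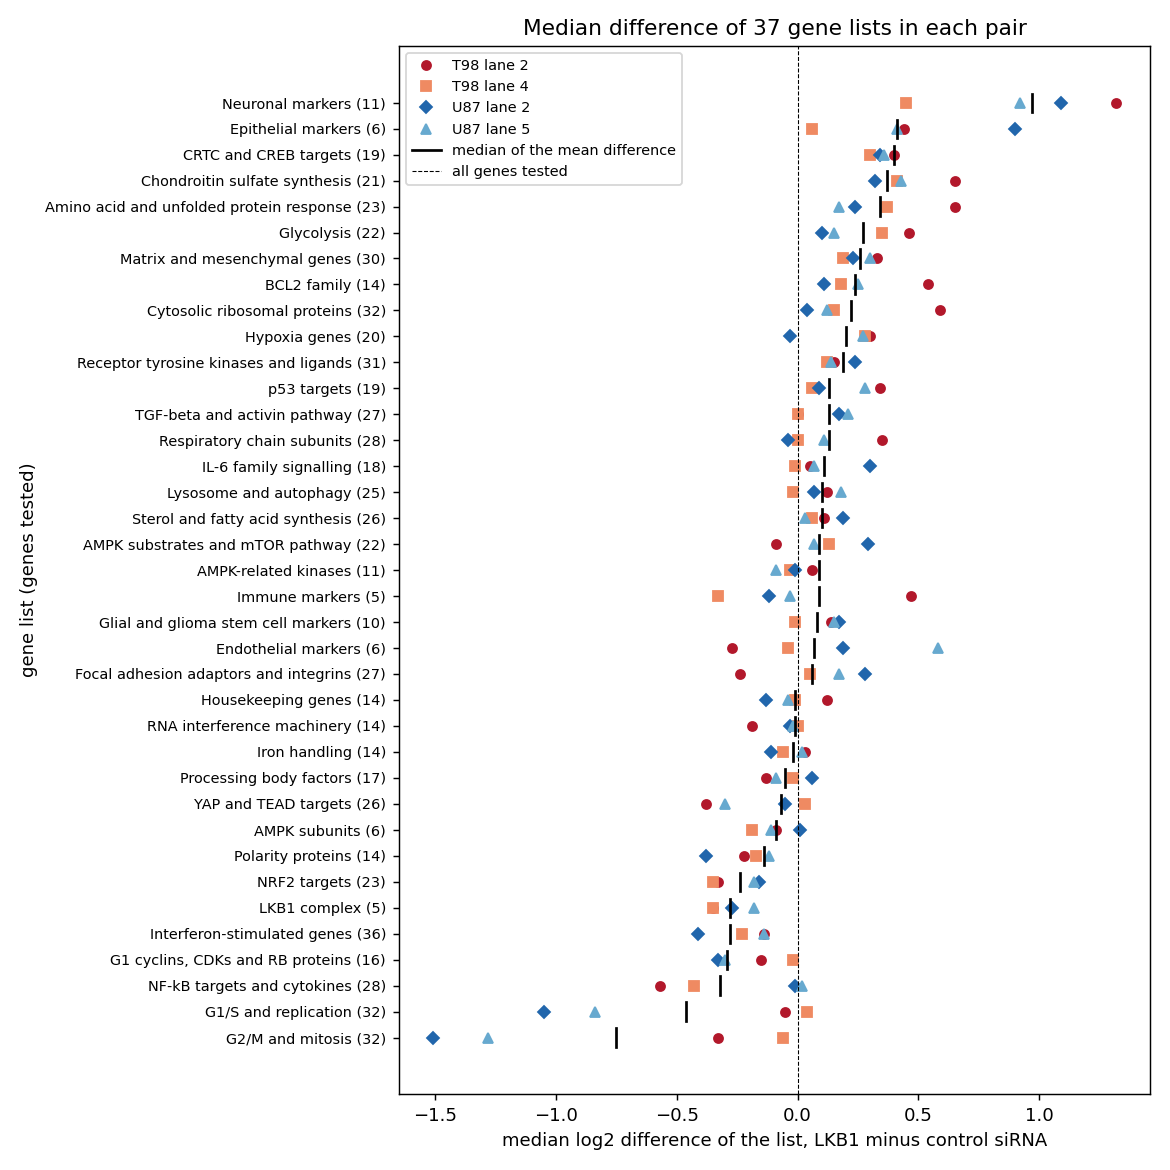
Median log2 difference of each of 37 gene lists in each pair (symbols) and of the mean difference (black bar), with the number of genes tested in parentheses and the median of all genes as a dashed line. The CREB and CRTC list and that of receptor tyrosine kinases and their ligands have 4 close medians. The symbols of both cell cycle lists split by line, from −0.33 to 0.04 in T98 and from −1.51 to −0.84 in U87.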

How the data were processed

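RNA from T98 and U87 cells (4 groups of 2 libraries) was prepared with a TruSeq RNA kit, per the labels' protocols, and aligned with TopHat2 2.0.8b to hg19 and processed with edgeR (no version), per the submitters' processing notes. No source used here names the read counter. The authors deposited 1 normalised signal value per gene and library. The authors' values had the form of edgeR pseudo-counts at a common dispersion of 0.06803, and when that transformation was undone, 100% of the values of each library lay within 0.05 of a whole read. A symbol with several transcripts kept 1 of them, and 56 genes tested had values identical to another gene. How strand was treated is not stated, so genes that overlap on opposite strands cannot be told apart.

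Tests used limma 3.58.1 (R 4.3.3), limma-trend on log2(value + 1), with a term for the pair of line and lane and 3 residual degrees of freedom, two-sided. The pairs come from the lanes in the column names. The lane difference, gene by gene, correlated between the control and LKB1 siRNA groups at 0.72 in T98 and 0.81 in U87. Effects per line and their difference came from a fit with 2 residual degrees of freedom. The procedure was run on simulated reads with independent noise in each library and genes changed alike in both lines. Such reads lack the correlation between real pairs, so the run checks the code only. Beside LKB1 signalling genes, the text names the 12 largest rises and 12 largest falls past the threshold with all 4 pairs in one direction, a mean of 50 or more in the higher siRNA group of each line and a non-provisional symbol, and up to 2 risen and 2 fallen genes per list by smallest adjusted p. The members and lists were chosen with earlier results of these data known. The 3′ UTRs came from GENCODE on GRCh38 (13613 genes matched by RefSeq identifier, 512 by symbol, 157 unmatched). No coordinates were converted. Alternatives were another pseudocount, filter or scaling, no pair term, 1 effect per line, each pair left out, and voom on the recovered reads, which was chosen after seeing the data.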

Additional observations from a re-analysis of the deposited data

Results flagged for a closer look

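The knockdown effect differed between the lines by limma-trend for 2 genes named by the rule, and for KIF5C, which was added after its values were seen. CEND1 rose by 5.03 in T98 and 1.43 in U87, a difference of 3.60 (SE 0.30, adjusted p = 0.0271, both T98 pairs above both U87 pairs). FAIM2 rose by 3.41 and 1.36, a difference of 2.04 (SE 0.24, adjusted p = 0.0349, likewise in all pairs). KIF5C rose by 3.18 and 1.01, a difference of 2.17 (SE 0.27, adjusted p = 0.0415, likewise in all pairs). For the AMPK subunit PRKAG1, both T98 pairs were negative (−0.15 and −0.29) and both U87 pairs positive (0.04 and 0.01), a difference of −0.25 that did not pass the test.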

How the results depend on the processing

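Counts of risen and fallen genes were 1213 and 1122. Without the pair term, that is with no replicate block, they were 143 and 122. They were 1886 and 1879 with 1 effect per line, so that the lines' difference was not counted as spread, and 321 and 207 with no filter on low values. Leaving out 1 pair gave 342 to 1018 rises and 231 to 953 falls. Under the other alternatives tried (pseudocounts of 0.5 and 10, a value of 50 or more in 4 libraries, TMM and median scaling, voom), the counts stayed within 1.5 times. The STK11 fall passed in all of them, at −2.57 to −2.25 with 1 pair left out. Median scaling shifted the median of all genes by 0.03. The direction reversed for MARK1 and PRKAB1, which did not pass. MARK1 was −0.06 with a pseudocount of 10, −0.22 by voom and −0.14 to 0.15 with 1 pair left out (−0.14 without T98 lane 2), and PRKAB1 was 0.00 by voom and 0.00 to 0.08 with 1 pair left out (0.00 without T98 lane 2). The cause was not tested. Of the 111 named genes other than STK11 that had a call, 76 lost it with no pair term, 70 with no filter and 12 to 44 with 1 pair left out. Among list medians, the glial one turned from 0.08 to −0.11 with no filter and to −0.04 without the U87 lane 5 pair, and the interleukin-6 one from 0.11 to −0.05 without the U87 lane 2 pair. Of the 24 largest changes, 12 did not pass with no filter, 5 with no pair term and 2 without the T98 lane 4 pair. The edgeR and DESeq2 tests on recovered reads were not run. Each test rests on 4 pairs, and genes with few reads, such as LIPH and RAB39B, have rough folds.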
